A study of Mus musculus with 4 samples.

Results

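CD4 T cells of the mouse peritoneal cavity were examined in single-cell RNA counts from a sort for F4/80, a surface protein of macrophages encoded by Adgre1. A barcode was taken as a CD4 T cell with at least 500 detected genes, at most 10% mitochondrial UMIs (counted RNA molecules), at least 2 UMIs of Cd3d, Cd3e and Cd3g together and at least 1 UMI of Cd4. It could hold no UMI of Cd8a, Cd8b1, Trdc, Cd79a, Adgre1 or Csf1r, the last 4 marking gamma-delta T cells, B cells and macrophages. This left 179 CD4 T cells of 26811 barcodes, or 0.858% of the 20864 barcodes that passed the limits on genes and mitochondrial UMIs. The cells were thus selected on measured UMIs of these genes, and everything below is a description without a test.

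The samples came from mice aged 24 weeks, with 1 sample in each of 4 groups. One group was C57BL/6 mice, labelled WT, on a normal diet, and another Apoe-/- mice on a normal diet. The next was Apoe-/- mice given a high-fat diet (HFD) of 21% fat and 0.15% cholesterol for 20 weeks, and the last had the same genotype and diet and received anti-CVI-mAb, an antibody against collagen VI, at 3 mg in 200 µL into the peritoneum at week 21. Untreated mice were given the same volume of PBS, and a normal diet returned a week before the first injection. Male sex is stated for the Apoe-/- mice of the diet groups only, and the labels name the sorted cells macrophages. Apoe encodes apolipoprotein E, and the deletion is in the whole animal. The deposited matrix carries 4 barcode suffixes, called libraries 1 to 4 here after the suffix, and no label ties a suffix to a sample. The matrix therefore counts as 1 sample, no genotype, diet or treatment was compared, and differences between libraries are given without a group. Intervals are 95% intervals that cover counting error only, with no replicate behind any library.

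CD4 T cells recognise peptides on class II molecules through an alpha-beta T cell receptor, which signals through the CD3 chains, and they direct other immune cells with cytokines and with contact proteins such as CD40 ligand. Subsets are known by their regulators: T-bet for type 1 helper cells, GATA3 for type 2 and FOXP3 for regulatory cells. CD8 T cells recognise class I molecules and kill with perforin and granzymes. The peritoneal cavity holds many resident macrophages and B cells beside a small population of T cells.

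CD4 T cells numbered 41, 35, 46 and 57 in libraries 1 to 4. They made up 1.14, 0.581, 0.866 and 0.963% of the kept barcodes of each library, so their share was lowest in library 2. The mitochondrial limit had removed 1936 of 6254 barcodes in library 1, against 495, 296 and 495 in libraries 2 to 4. The share of library 1 thus rests on a smaller base of 3611 kept barcodes. CD8 T cells, with the same limits but a Cd8a or Cd8b1 UMI and no Cd4 UMI, numbered 15, 29, 33 and 22, or 99 in all. Of the 278 CD4 and CD8 T cells, 64.4% (58.4 to 70.0, exact Clopper-Pearson) were CD4 T cells. By library this share was 73.2% (59.7 to 84.2), 54.7% (41.7 to 67.2), 58.2% (46.6 to 69.2) and 72.2% (60.9 to 81.7). Libraries 1 and 4 had the higher shares, and the intervals of all 4 libraries overlap. Another 117 T cells had neither a Cd4 nor a Cd8 UMI, 4 had both, and 42 had a Trdc UMI.

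**Figure D1:**
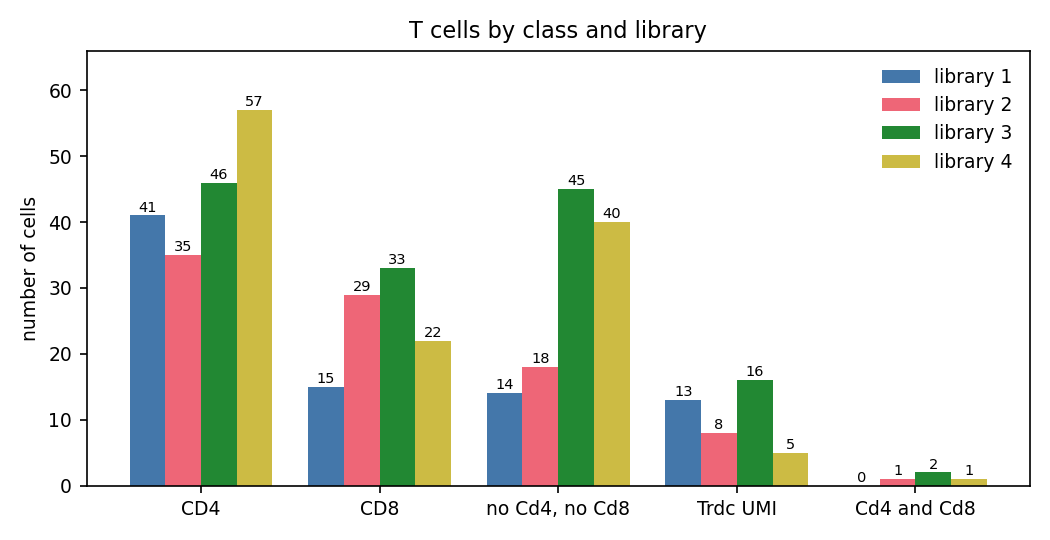
Number of T cells in each class (horizontal axis) by library (bar colour), with the count above each bar. CD4 T cells are the largest class in libraries 1, 2 and 4 and close to the cells without a Cd4 or Cd8 UMI in library 3 (46 and 45 cells).

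The class rests on few Cd4 UMIs: 80 cells had 1, 61 had 2, 26 had 3, 7 had 4 and 5 had 5. Cd4 was nearly absent from other cells, with a UMI in 0 of 1436 B cells, which allows a share of up to 0.209%, and in 8 of 16151 macrophages (0.0495%). Il7r, the receptor chain for the survival cytokine IL-7, was detected in 173 of the 179 cells (96.6%), against 81.8% of CD8 T cells and 0.348% of B cells. Trbc2, a constant gene of the T cell receptor beta chain, was found in 168 cells (93.9%), and Trac, that of the alpha chain, in 145. Genes that the selection did not use also went with the label. Cd40lg, the ligand by which helper cells license B cells and dendritic cells, had 44 UMIs in 35 CD4 T cells (10, 14, 10 and 10 UMIs by library) and 0 in CD8 T cells, which is at least 7.06-fold higher against a floor of 3 UMIs over the CD8 set. Zbtb7b, the regulator of the CD4 lineage also called ThPOK, had 37 UMIs against 2, spread evenly at 9, 9, 8 and 11 by library. Cd40lg and Zbtb7b stayed under the level needed for a call in the comparison of classes below. B cells and macrophages also hold Zbtb7b, in 14.6 and 26.3% of cells.

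Cells just inside the limit were shallower than those well inside it. The 80 cells with 1 Cd4 UMI had a median of 4621 UMIs and the 99 with more had 5828, while cells with neither coreceptor had 3708. Tnfrsf4, the costimulatory receptor OX40, stood at 131 and 122 CPM, the UMIs of a gene per 1000000 UMIs of its class, inside the limit, 81.4 in cells with neither coreceptor and 4.14 in CD8 T cells. Klrk1, the killer receptor NKG2D, was at 30.8 and 37.5 CPM inside it, 142 with neither coreceptor and 371 in CD8 T cells. The cells with neither coreceptor thus lay between both classes on Tnfrsf4 and Klrk1, and on Ccl5 (4138 CPM against 2399, 2858 and 15791). On Cd40lg, Zbtb7b and Izumo1r they stood at 29.2, 33.4 and 41.8 CPM, near the 28.2, 30.8 and 41.0 CPM of cells with 1 Cd4 UMI. CD8 T cells had 0, 4.14 and 2.07 CPM of these.

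Depth and RNA of other cells set the limits of what can be seen. The median CD4 T cell held 5085 UMIs and 1833 genes (4975, 5819, 4419.5 and 6079 UMIs by library), against 4535 UMIs for CD8 T cells and 12440 for macrophages. No CD4 T cell shared its barcode sequence with a cell of another library. Macrophage RNA was present in almost every cell: Lyz2, the lysozyme gene of macrophages, had a UMI in 177 of the 179. The 16 macrophage markers summed to 3160 CPM in CD4 and 3386 CPM in CD8 T cells, and by library the CD4 sums were 4.89, 3.35, 3.29 and 2.83% of those in macrophages. Among other marker lists, the sums in CD4 and CD8 T cells were 354 and 1335 CPM for B cells, 339 and 613 for dendritic cells and 277 and 412 for NK and innate lymphoid cells. Of defining markers, Ms4a1, Flt3, Xcr1, Ncr1, Klrb1c and Fcer1a were at 0 in CD4 T cells. A further 222 T cells were left out for an Adgre1 or Csf1r UMI, 100 of them with a Cd4 UMI, at a median of 8072.5 UMIs.

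**Figure D2:**
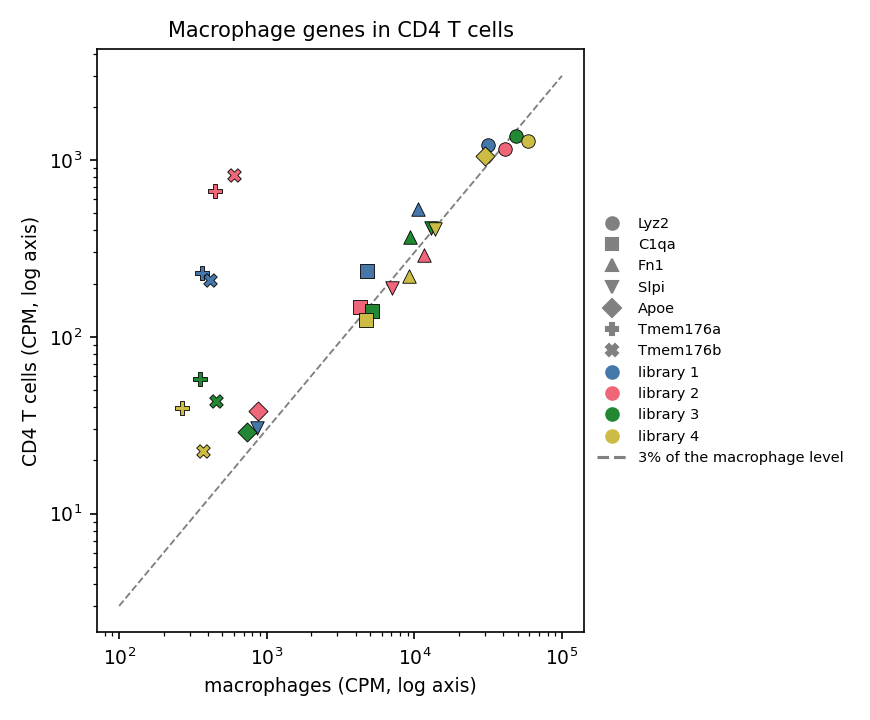
Level of macrophage genes in CD4 T cells against macrophages of the same library, both in CPM on log axes, with symbols for genes and colours for libraries; the dashed line is 3% of the macrophage level and values of 0 (Apoe in library 1) are not drawn. Tmem176a and Tmem176b lie above the line, at up to 152 and 138% of the macrophage level in library 2.

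To ask how CD4 T cells differ from CD8 T cells of the same cavity, UMIs were summed over each class. Ratios are log2 of CD4 over CD8 CPM with a prior count of 0.5. A gene was called when it reached 50 CPM in the higher class, a ratio of at least 1 in size, and 1 sign in every library with at least 3 of its UMIs, with 3 such libraries needed. Genes used to choose the cells were left out. With a library left out, a gene near 50 CPM or with a sign in just 3 libraries can therefore lose its call at any ratio. Of 2947 genes at 50 CPM, 58 (1.97%) were called higher in CD4 T cells and 52 (1.76%) lower, and the median ratio of all was 0.03. The higher genes included Tnfrsf4, Socs2, Gata3 and Maf, and the lower genes Crtam, Prf1, Klrk1 and Ccl5. The lowest ratio belonged to Gm44175, a gene model without a gene symbol, with 0 UMIs against 25, at least 17.3-fold lower. Such models are not described further. A wider exclusion of other lineages, which left 21 CD4 and 12 CD8 T cells, ended the call of 34 of 42 named genes, those of Tnfrsf4, Socs2, Cish, Il2ra, Icos, Prf1 and Klrk1 included. The ratio there was 1.35 for Socs2, 2.20 for Il2ra, 0.91 for Icos and -2.61 for Klrk1. With so few cells, the prior count weighs on every ratio of this alternative.

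Among costimulatory and contact receptors, Tnfrsf4 had the largest ratio. Its 126 UMIs fell as 20, 26, 43 and 37 over libraries 1 to 4, against 2 in CD8 T cells, and 76 CD4 T cells (42.5%) had a UMI against 2.02% of CD8 T cells. The gene lies on chromosome 4 from 156013843 to 156016612 (GRCm38, GENCODE M21). Every library was high, and the log2 ratio was 4.61 (3.04 to 7.98). After thinning each cell to 2000 UMIs, which removes the difference in depth, the shares were 22.5 and 2.04%. Icos, a receptor of the CD28 family, had 95 UMIs against 14 (30, 21, 20 and 24 by library), with a log2 ratio of 1.66. Izumo1r, folate receptor 4, had 71 UMIs against 1 and was uneven, with 40, 10, 20 and 1 UMIs by library. Slamf1, a contact receptor, had 52 against 2 (17, 14, 9 and 12), and Tnfsf8, CD30 ligand, had 112 against 23. Izumo1r lost its call without library 1, 2 or 3, Slamf1 without library 1 or 2, and Tnfsf8 without library 1. Izumo1r had a sign in just the 3 libraries that a call needs, so its loss follows from the rule. Slamf1 lay near the minimum of 50 CPM, at 51.8 CPM. The ratio of Izumo1r stayed at 3.12 or more in 17 alternatives and that of Slamf1 at 2.59 or more. These alternatives include the wider exclusion with its few cells.

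Socs2, Cish and Il2ra are linked by STAT5 signalling. Socs2, an inhibitor induced by STAT5, had 32, 24, 23 and 32 UMIs by library, 111 against 2 in CD8 T cells, with a log2 ratio of 4.42 (2.85 to 7.80). Every library was high, and its ratio was lower, at 1.35, under the wider exclusion, where few cells were left. Cish, a relative of Socs2 that is also induced by STAT5, had 23, 29, 15 and 18 UMIs, 85 against 14. Il2ra, the alpha chain of the IL-2 receptor that signals through STAT5, had 21, 21, 7 and 7 UMIs, 56 against 1, with a ratio of 4.18. It lost its call without library 1 or 2. Its pooled level of 55.8 CPM lay near the minimum of 50 CPM, and its ratio stayed at 2.20 or more in 17 alternatives. The value of 2.20 came from the wider exclusion, where few cells were left and the prior count weighs on the ratio. Libraries 1 and 2 were the higher ones for Il2ra.

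The start region of Cish is shown because it holds a pair of STAT-type motifs. The letters TTCNNNGAA, in capitals, were searched; the motif is its own reverse complement, so both strands are covered. The window spans 250 bases before and 50 after the RefSeq start, at chr9:107296409-107296708 of GRCm38.p6 on the plus strand.
Cish: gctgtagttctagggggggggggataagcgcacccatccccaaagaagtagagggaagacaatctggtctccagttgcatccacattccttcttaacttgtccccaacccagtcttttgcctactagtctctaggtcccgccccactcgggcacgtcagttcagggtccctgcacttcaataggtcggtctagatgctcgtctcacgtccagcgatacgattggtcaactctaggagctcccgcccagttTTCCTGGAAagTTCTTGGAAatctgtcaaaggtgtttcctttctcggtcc
The motifs begin 0 and 11 bases after the annotated start and lie 2 bases apart. Of 32851 windows of this length in RefSeq, 8.30% hold the motif at least once and 0.457% at least 2 times. Of the 12 called genes most raised by the median over libraries, Socs2 and Il2ra among them, 9 had a window and 0 held the motif. Of all genes called higher, 50 had a window and 4 held the motif (8.0%), and of those called lower it was 5 of 40 (12.5%). The shares of 8.0 and 12.5% lie near that of all windows, and a match is not shown to be a bound site.

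Gata3 had 67, 31, 26 and 36 UMIs by library, 160 against 26, with a log2 ratio of 1.54, and a UMI in 81 cells. Under the wider exclusion its ratio was -0.050 and that of Il1rl1 was -0.97. With so few cells there, the prior count weighs on both, and the value of Il1rl1 fits equal UMI counts in both classes. Maf, a regulator of IL-10 and of follicular helper cells, had 85, 44, 48 and 42 UMIs, 219 against 31, with a ratio of 1.75. Library 1 was highest for both. Rora, known from type 17 and innate lymphoid cells, had 50, 51, 31 and 56 UMIs (188 against 32, ratio 1.48), and Hif1a, the oxygen-sensing factor, 67, 31, 59 and 42 (199 against 24, ratio 1.97). Ahr, the aryl hydrocarbon receptor, had 22 UMIs against 0, at least 3.53-fold higher, but stayed under 50 CPM and was not called.

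Ccr2, the chemokine receptor for CCL2, had 81, 95, 44 and 140 UMIs by library, 360 against 62, with a ratio of 1.47 (1.09 to 1.90). It was detected in 106 CD4 T cells, and its share of cells was higher in libraries 2 and 4 (74.3 and 78.9%) than in 1 and 3 (46.3 and 34.8%). Ltb4r1, the leukotriene B4 receptor, had 26, 23, 2 and 0 UMIs, 51 against 1, and lost its call without library 1, 2 or 3. It had a sign in just 3 libraries, so this loss follows from the rule, and its ratio stayed at 1.84 or more in 17 alternatives. Itgb3, an integrin beta chain, had 29, 7, 8 and 18 UMIs against 4 in CD8 T cells, or 61.8 CPM in CD4 T cells. It lost its call without library 1, with a ratio of 2.20 or more in 17 alternatives. For both Ltb4r1 and Itgb3 these include the wider exclusion, where few cells were left and the prior count weighs on the ratio. S100a4 and Anxa1, genes raised in memory T cells, had ratios of 1.01 and 1.73, and both lost their call without library 2. S100a4 kept its call in 9 and Anxa1 in 11 of 17 alternatives. Capg, an actin-capping protein, had a ratio of 2.63 (135 UMIs against 10). Under the wider exclusion its ratio was 0.72 and not called. Capg is also in 86.2% of macrophages and 84.3% of B cells.

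**Figure D3:**
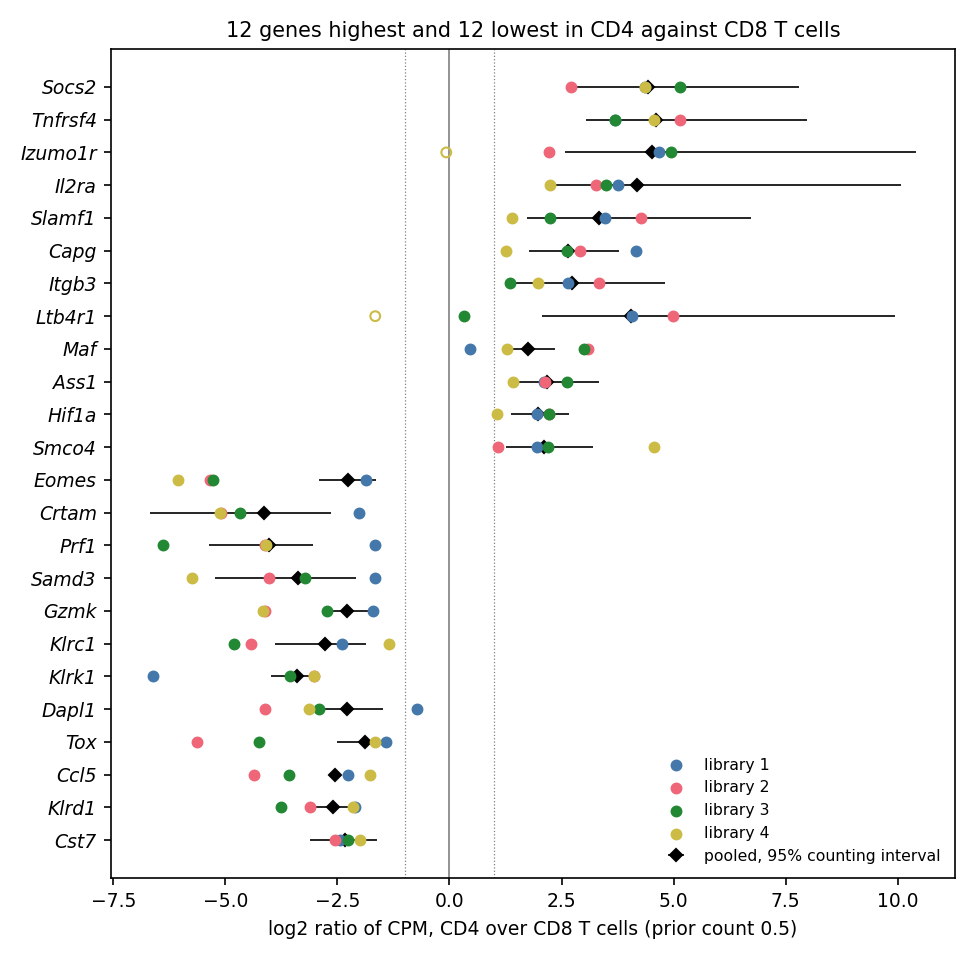
Log2 ratio of CD4 over CD8 CPM for the 12 called genes most raised and the 12 most lowered by the median over libraries, leaving out gene models without a symbol, with circles for libraries (open where a library has under 3 UMIs), diamonds for the pooled value with its 95% counting interval, and dotted lines at a ratio of 1 in size. Pooled values run from 4.61 for Tnfrsf4 to -4.13 for Crtam.

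Cytotoxic genes were lower in CD4 T cells. Prf1, perforin, had 8 UMIs against 66 in CD8 T cells, with a log2 ratio of -4.02. Klrk1 had 0, 10, 6 and 19 UMIs by library, 35 against 179, with a ratio of -3.39. Klrd1 and Klrc1, which form an NK receptor, had ratios of -2.61 and -2.79, and Crtam, an adhesion receptor of cytotoxic cells, -4.13. Gzmm, granzyme M, had 0 UMIs against 22, at least 15.2-fold lower, and Cd160, another killer receptor, 0 against 16, at least 11.1-fold lower, both against 3 UMIs over the CD4 set. Gzmm and Cd160 stayed under 50 CPM in both classes and were not called. Eomes, a regulator of cytotoxic cells, was lower with 32 UMIs against 74 (ratio -2.25).

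Ccl5 and Nkg7 were lower on average but not absent. Ccl5, a chemokine of effector T cells encoded on chromosome 11 from 83525778 to 83530518, had 692, 161, 302 and 1533 UMIs by library, 2688 against 7620 in the fewer CD8 T cells, with a log2 ratio of -2.56 (-2.62 to -2.50). Of CD4 T cells, 76 (42.5%) had a Ccl5 UMI, against 94 CD8 T cells and 0.975% of B cells at a median of 6897.5 UMIs. After thinning, the CD4 share was 39.9% and the CD8 share 92.9%. Nkg7, a cytotoxic granule protein, had a UMI in 100 CD4 and 97 CD8 T cells, with a ratio of -1.79. Nkg7, Klrd1, Ctsw and Ccr2 kept their call in all 17 alternatives, and Ccl5 in the 16 that did not use Ccl5 to choose cells.

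The gene lists give the wider picture, with counts of members at 50 CPM in either class. Members that reached 50 CPM in 1 class only had to differ, so the counts describe and do not support a direction. Beside them, 1.97% of all genes at 50 CPM were called higher and 1.76% lower. Of 20 T cell receptor and CD3 genes, 1 was higher (Cd5, a brake on receptor signalling, whose call was lost without library 2), 0 lower, with a median ratio of 0.01. Of 13 cytotoxic genes, 9 of them at 50 CPM in 1 class only, 11 were lower and 2 were not called. Of 8 helper genes, 6 of them in 1 class only, 4 were higher (Tnfsf8, Icos, Tnfrsf4 and Izumo1r). Of 9 genes of a regulatory T cell list, 8 of them in 1 class only, 7 were higher (Il2ra, Tnfrsf4, Izumo1r, Capg, Nrp1, Socs2 and Il1rl1), though Foxp3 was rare. Of 20 memory genes, 4 were higher and 1 lower, and of 11 naive genes 1 was lower (Dapl1). Of 11 type 2 genes only Gata3 and Il1rl1 reached 50 CPM, and both were higher. Of 3 type 17 genes 1 was higher (Rora), of 2 follicular helper genes 1 was lower (Sh2d1a), and of 3 checkpoint genes 2 were lower (Eomes and Tox). Of 12 activation genes 1 was lower (Dusp2, at 2.49 under the wider exclusion). None of 11 class I genes, 18 ribosomal protein genes or 3 cell cycle genes was called.

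CD4 T cells were then split by Ccl5, a split chosen after these data were seen. The 76 positive cells numbered 14, 13, 13 and 36 by library, or 34.1, 37.1, 28.3 and 63.2% of the CD4 T cells there, so library 4 was high. Median depth was 5610.5 UMIs in positive and 4731 in negative cells, so a cell's depth bears on its class. By the same rule 25 of 3032 genes (0.825%) were higher and 56 (1.85%) lower in positive cells. Ly6c2, a surface protein of effector memory cells, had 269 UMIs against 44, with a log2 ratio of 2.86 (2.41 to 3.37). Nkg7 (ratio 1.92), Ctsw, a cathepsin of cytotoxic cells (1.94) and Il18rap, a chain of the IL-18 receptor (1.16), were higher too. The ratio of Nkg7 was 0.42 in library 2, with a median over libraries of 1.83. Plac8 had a pooled ratio of 1.31 but only 0.09 in library 4, which held 94 of its UMIs and 36 of the 76 positive cells, and a median over libraries of 0.79.

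Other genes were lower in positive cells. Izumo1r had 6 UMIs in positive and 65 in negative cells (ratio -3.07), Ikzf2, the factor Helios, 10 against 69 (-2.46), and Tnfrsf4 24 against 102 (-1.80). Of the 65 Izumo1r UMIs, 39 came from library 1, and library 4, with 36 of the 76 positive cells, held 1 Izumo1r UMI. Its ratio was -0.40 in library 2, with a median over libraries of -2.11. Counted by cell, 18 of the 76 Tnfrsf4-positive cells had a Ccl5 UMI (23.7%), against 58 of the other 103 (56.3%). Of the 53 Ly6c2-positive cells, 43 had one (81.1%). Socs2 and Ccr2, in contrast, had ratios of -0.07 and -0.20. Against CD8 T cells, the negative cells had no UMI of Eomes, Crtam or Samd3, and their ratio was 5.18 for Tnfrsf4 and -2.97 for Nkg7.

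**Figure D4:**
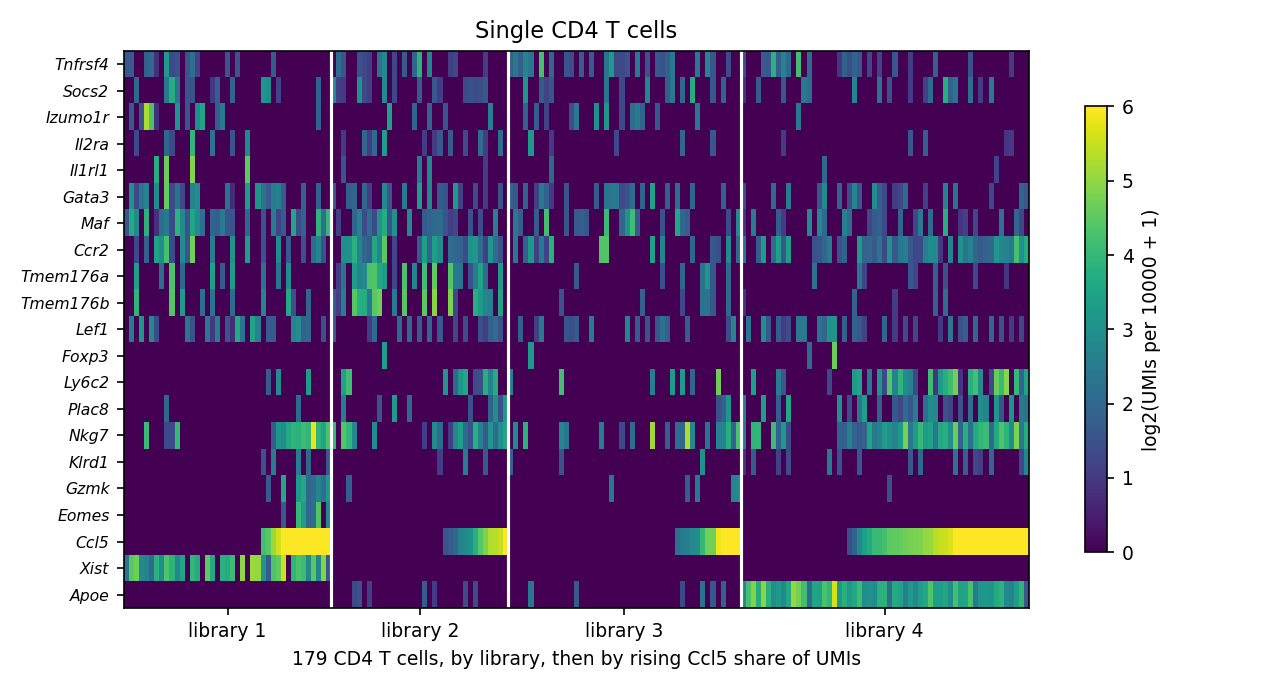
Levels in the 179 single CD4 T cells (columns, ordered by library and then by rising Ccl5) of 21 genes (rows), as log2 of UMIs per 10000 plus 1, with colour ending at 6. Of the 100 cells with Nkg7, 70 also have Ccl5, and Eomes appears in library 1 only.

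Regulatory T cells and helper cytokines were scarce. Foxp3 had 9 UMIs in 4 cells, 0, 1, 1 and 2 by library, which is 2.23% (0.612 to 5.62) of CD4 T cells, and 0 UMIs in CD8 T cells and B cells. The 4 cells had 3316, 2451, 2969 and 1238 UMIs in all, and each had a UMI of Ctla4, an inhibitory receptor of regulatory cells (3, 2, 1 and 1). Ikzf2 was found in 3 of them (3, 4, 0 and 2 UMIs) and Il2ra in 2 (3, 2, 0 and 0). With at least 2 Cd4 UMIs required, 0 Foxp3-positive cells were left. Il4 had 2 UMIs, both in library 3, and Il5, Il13, Il17a, Il17f and Il22 had 0, where 3 UMIs would be 2.99 CPM. Il2 and Tnf had 11 UMIs each, Ifng 7, Il10 3 and Il21 1. Mki67, a marker of dividing cells, was found in 7 cells.

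Libraries differed in which CD4 T cells they held. Library 1 lost the largest number of barcodes to the mitochondrial limit. Its CD4 T cells had a median of 5.26% mitochondrial UMIs, against 4.43, 4.74 and 4.20% in libraries 2 to 4. Eomes had 32, 0, 0 and 0 UMIs, all from 7 cells of library 1, where 3 UMIs in libraries 2 to 4 would be 14.2, 14.4 and 8.47 CPM. Each of these 7 cells also had Gzmk, granzyme K (1 to 12 UMIs), Ccl5 (31 to 119) and Nkg7 (3 to 18), and none had Il1rl1 or Foxp3. Gzmk followed the same order with 33, 1, 8 and 1 UMIs, and Tox, a factor of chronically stimulated T cells, had 30, 0, 1 and 8. CD8 T cells held Eomes in every library (37, 13, 14 and 10 UMIs). Without library 1 the CD4 T cells have 0 Eomes UMIs, and the log2 ratio of Gzmk to CD8 T cells goes from -2.28 to -3.60.

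Il1rl1, the receptor for IL-33, had 55, 7, 3 and 2 UMIs by library, in 4, 4, 1 and 2 cells. In library 1 the 4 cells had 16, 16, 16 and 7 UMIs, with 9, 15, 3 and 3 of Gata3, 13, 12, 14 and 3 of Ccr2 and 6, 7, 10 and 1 of Ltb4r1. None of them had a UMI of Ccl5, Foxp3 or Areg, nor of the mast cell genes Cma1, Mcpt4, Cpa3 and Fcer1a. Its ratio to CD8 T cells of 3.70 thus rests on few cells. Only libraries 1 to 3 had the 3 UMIs needed for a sign, so its call ends without any of them by the rule. The ratio was 2.14 without library 1, 3.38 without library 2 and 4.14 without library 3. Markers of NK and innate lymphoid cells summed to 711, 199, 149 and 119 CPM by library. The list holds Il1rl1, Gata3 and Eomes, whose 55, 67 and 32 UMIs in library 1 are counted in it again, so the sum is no separate observation. Of its other members, Ncr1, Klrb1c, Klra8, Areg and Il5 were at 0 in CD4 T cells. The part of NK and innate lymphoid cells in this result was not tested.

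Ly6c2 and Plac8 were highest in library 4. Ly6c2 had 9, 58, 37 and 209 UMIs in 3, 11, 7 and 32 cells, or 7.32, 31.4, 15.2 and 56.1% of CD4 T cells, and the interval of library 4 (42.4 to 69.3%) lay above those of libraries 1 and 3. Plac8, found in activated lymphocytes and myeloid cells, had 4, 24, 7 and 94 UMIs in 2, 9, 3 and 28 cells. Plac8 is also in 92.2% of B cells. Tbx21, which encodes T-bet, was found in 3, 4, 0 and 13 cells, again most often in library 4. Izumo1r ran the other way and was lowest there, with 1 UMI.

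**Figure D5:**
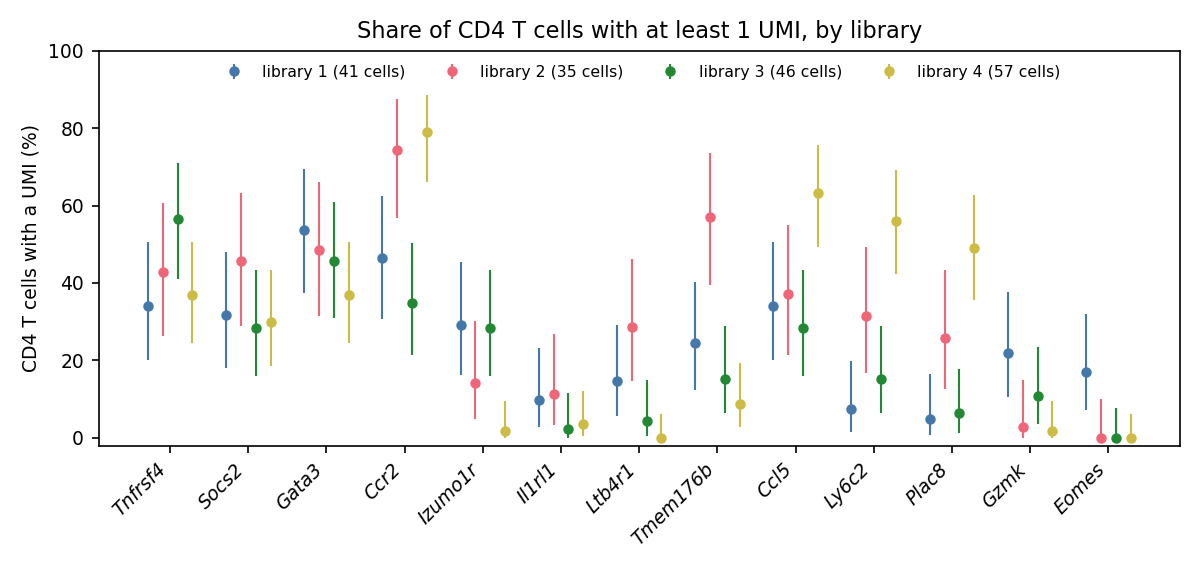
Share of CD4 T cells with at least 1 UMI of 13 genes (vertical axis, percent) by library (colours), with exact 95% intervals. The intervals of Tnfrsf4 and of Socs2 overlap across libraries, Eomes is above 0 in library 1 only, Tmem176b peaks in library 2 (57.1%) and Ly6c2 and Plac8 in library 4 (56.1 and 49.1%).

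Tmem176a and Tmem176b, neighbouring genes of membrane proteins known from dendritic cells and from type 17 T cells, were highest in library 2. Tmem176a had 53, 142, 12 and 14 UMIs in CD4 T cells, or 231, 672, 57.6 and 39.5 CPM, and Tmem176b had 48, 174, 9 and 8, or 209, 823, 43.2 and 22.6 CPM. In libraries 1 and 2 these levels were 63.4 and 152% of the macrophage level for Tmem176a and 50.5 and 138% for Tmem176b, far over the 4.89 and 3.35% of the summed macrophage markers. In libraries 3 and 4 they were 16.2 and 14.9%, and 9.46 and 6.07%. CD8 T cells had 0, 14.1, 76.9 and 53.4 CPM of Tmem176a, so the sign of the difference was not shared and neither gene was called. Cell by cell the pair went together, with Tmem176a in 32 of 42 Tmem176b-positive cells and in 16 of the other 137. The Tmem176b-positive cells were deeper, at a median of 6260 against 4830 UMIs, and 20 of the 42 came from library 2. By library, Tmem176a was in 7 of 10, 18 of 20, 5 of 7 and 2 of 5 of them.

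The start of Tmem176a is shown because the pair was detected together and the windows of both genes overlap. The window lies at chr6:48841233-48841532 of GRCm38.p6 on the plus strand, and capitals mark the 208 bases shared with the window of Tmem176b, which is read from the minus strand.
Tmem176a: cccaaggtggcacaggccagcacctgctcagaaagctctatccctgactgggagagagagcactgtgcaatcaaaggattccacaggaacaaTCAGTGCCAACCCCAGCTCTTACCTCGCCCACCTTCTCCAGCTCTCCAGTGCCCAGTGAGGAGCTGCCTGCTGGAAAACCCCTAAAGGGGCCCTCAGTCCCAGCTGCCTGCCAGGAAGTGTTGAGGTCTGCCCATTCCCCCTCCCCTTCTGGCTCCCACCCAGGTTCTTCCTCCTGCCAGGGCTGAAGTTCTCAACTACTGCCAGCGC
The shared bases run from 48841325 to 48841532.

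Xist and Apoe also split the libraries. Xist, the RNA of the inactive X chromosome, had 322, 0, 0 and 0 UMIs in CD4 T cells, from 35 of the 41 cells of library 1, and was likewise found in all 15 CD8 T cells there. The 7 Eomes-positive cells all had it. Apoe had 0, 8, 6 and 373 UMIs in CD4 T cells, or 0, 37.9, 28.8 and 1054 CPM, against 30.6, 868, 737 and 29965 CPM in macrophages. The CD4 level was 4.36, 3.91 and 3.52% of the macrophage level in libraries 2 to 4, beside 3.35, 3.29 and 2.83% for the summed macrophage markers. No library was given a group from these values.

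Receptor variable genes, which lie away from the 3' end that the kit reads, gave few UMIs. Trbv genes gave 23 UMIs in 21 CD4 T cells, over 11 of 35 genes, with at most 4 cells for 1 gene (Trbv2). Trav genes gave 28 UMIs in 23 cells over 20 of 130 genes. Shared clones cannot be read from so few UMIs.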

How the data were processed

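The values are UMI counts, whole numbers for 31253 genes and 26811 barcodes in 1 deposited matrix, whose header names Cell Ranger 5.0.1. CASAVA 1.8, Seurat and the mm10 build also stand in the submitters' processing notes. How reads were counted and cells called is not stated in the sources at hand. Per the labels' protocols, cells were washed out with 10 mL of PBS, passed through a 100 µm strainer, sorted as viable F4/80+ cells and made into 10x 3' libraries.

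Libraries 1 to 4 had 6254, 6765, 6454 and 7338 barcodes; the limits removed 2725 for genes and 3222 for mitochondrial UMIs. CD4 T cells held 229408, 211328, 208313 and 354011 UMIs, so 3 UMIs are 13.1, 14.2, 14.4 and 8.47 CPM. Ratios come from summed counts, without a test across genes, since cells are not replicates. B cells had at least 2 Cd79a UMIs and macrophages at least 2 of Adgre1 and Csf1r together, both without Cd3 UMIs or the other's genes. The members and lists were chosen with earlier results of these data known. Named were the 12 called genes with the highest and the 12 with the lowest median ratio (gene models without a symbol left out), list members, and the 10 genes with the largest ratio between libraries at 100 CPM. Scrublet in scanpy 1.11.5 marked 72 of 5547, 1 of 6518, 0 of 5607 and 2 of 6414 barcodes and has not worked in libraries 2 to 4 (under 0.5%); no CD4 or CD8 T cell was marked and doublets were left in. Python 3.11.15, numpy 2.4.6, scipy 1.17.1 and pandas 2.3.3 were used, with edgeR 4.0.16 for TMM scaling only. The scripts were tested on simulated data. Results of some genes are not reported here.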

Additional observations from a re-analysis of the deposited data

How the results depend on the processing

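Requiring at least 2 Cd4 UMIs in CD4 T cells, and at least 2 UMIs of Cd8a and Cd8b1 together in CD8 T cells, left 99 CD4 T cells. The CD4 share was then 53.8% and the Foxp3 share 0%. A wider lineage exclusion left 21 CD4 T cells, and the log2 ratios of Smco4 (-0.97), Dusp2 (2.49), Gata3 (-0.050) and Il1rl1 (-0.97) changed sign. With so few cells the prior count weighs on these ratios. The shared value of Smco4 and Il1rl1 fits equal UMI counts in both classes, so it shows no reversal of expression. A mitochondrial limit of 5% left 113 CD4 T cells and 85 lower genes. Genes called higher and lower were 105 and 127 after thinning to 2000 UMIs, 173 and 166 at 20 CPM, 21 and 19 at 100 CPM, and 272 and 217 with 10 UMIs in place of a CPM limit. With CD4 T cells without a Ccl5 UMI alone, an alternative chosen after seeing the data, 104 genes were higher. Leaving out 1 library at a time gave 122 to 144 CD4 T cells, a CD4 share of 61.3 to 67.3%, 70 to 116 higher and 69 to 80 lower genes and a Foxp3 share of 1.64 to 2.90%; the highest counts came without library 4 (116) and library 3 (80). Further calls lost this way were Cd5 without library 2 and Sh2d1a without library 3. Of 42 named called genes, 38 kept their sign and 5 their call in all 17 alternatives, 1 of them (Ccl5) by construction in the Ccl5-negative cells; the wider exclusion ended 34 calls, thinning 10 and the 5% mitochondrial limit 9. No paired analysis of groups was possible because each group has 1 sample and the barcodes carry no sample. CD4 and CD8 T cells were set against each other within each library, without a test. Genes under about 3 UMIs per library are not detectable at this depth.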
